A study of Zea mays with 18 samples.

Results

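In maize anthers carrying a ZmCCT10 transgene, 74 of the 45578 genes listed had almost no counts at a single stage of anther development. The rule that chose them used the counts themselves. A gene was silent in a group when it had at most 3 counts summed over the group's 3 libraries, and on when it had 10 or more counts in each library. The 74 genes were silent in exactly 1 of the 3 transgenic groups and on in the other 5 of the 6 groups, so each had transcripts in the control at the same stage and in transgenic anthers at both other stages. They fell into 28 genes silent at S3-4, 13 silent at S5-6 and 33 silent at S7. All 74 passed the filter on low counts and were tested.

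RNA was sequenced from anthers of plants with the ZmCCT10 transgene, labelled ZmCCT(+), and of non-transgenic controls, labelled ZmCCT(-), in the windows S3-4, S5-6 and S7, with 3 libraries per stage and genotype and 18 in all. The 6 groups are thus S3-4, S5-6 and S7 anthers of each genotype. The labels do not give the promoter of the transgene, the inbred line, the number of transgenic lines or the plants pooled per library. They also leave unsaid whether a group's 3 libraries are separate plants, so the spread behind the p-values is that of these libraries and may be technical.

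ZmCCT10 is a regulator with a CCT domain, known in maize for delaying flowering in long days. An anther develops from a few cell layers into lobes in which a nourishing layer, the tapetum, surrounds the cells that enter meiosis, and gene activity changes as these cell types form. In bulk anthers, fewer cells of a type and less RNA per cell cannot be told apart. A gene that was not transcribed and transcripts that did not align or were not counted cannot be told apart either. The 74 identifiers have no names in the tables, and 0 of 74 were found in the gene table used here, so no function is given for any of them.

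Library totals ran from 14846974 to 23652182 counts. S3-4 ZmCCT(+) stood apart from the other groups: 40.4% of the 24694 genes tested were higher and 40.9% lower than in the S3-4 control (edgeR's quasi-likelihood test, p adjusted over all genes, threshold 0.05). At S5-6 these shares were 29.8% and 33.4%, and at S7 24.1% and 30.4%. Scaling factors by TMM lay between 0.845 and 0.854 for S3-4 ZmCCT(+) and between 0.961 and 1.08 elsewhere. Such shares are the background against which the counts of called genes below are read. The tissue label was checked on 1 named transcript only, of 154 microRNA precursors listed. The precursor zma-MIR2275c, of a microRNA family known from maize anthers, had 2 counts in each S3-4 control library, 339 to 482 in the S5-6 controls and up to 456 in the S7 controls. In ZmCCT(+) it had no counts at S3-4, 55 to 80 at S5-6 and 7 to 11 at S7.

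The counts at the silent stage differed between the 3 sets, which is a description of what the rule selected. The 33 genes silent at S7 had 11 counts in all in the 3 S7 ZmCCT(+) libraries against 48418 in the S7 controls, and 26 of them had none. The 13 genes silent at S5-6 had 10 counts against 4774, and 7 of them had none. The 28 genes silent at S3-4 had 44 counts against 2843, and 6 of them had none. The genes silent at S7 thus had many counts in the controls and almost none in ZmCCT(+). Those silent at S3-4 had few counts in either genotype. With so few control counts, a loss as deep as at S7 could not have been measured for most of them. The depth of the loss is therefore not compared between the sets. TPM values, which are scaled by transcript length and library, can be compared between genes. The median control level at the silent stage was 16.5 TPM for the genes silent at S7, 8.54 TPM for those silent at S5-6 and 1.81 TPM for those silent at S3-4. All genes on in the other 5 groups had medians of 21.4, 22.8 and 20.5 TPM at these stages.

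**Figure D1:**
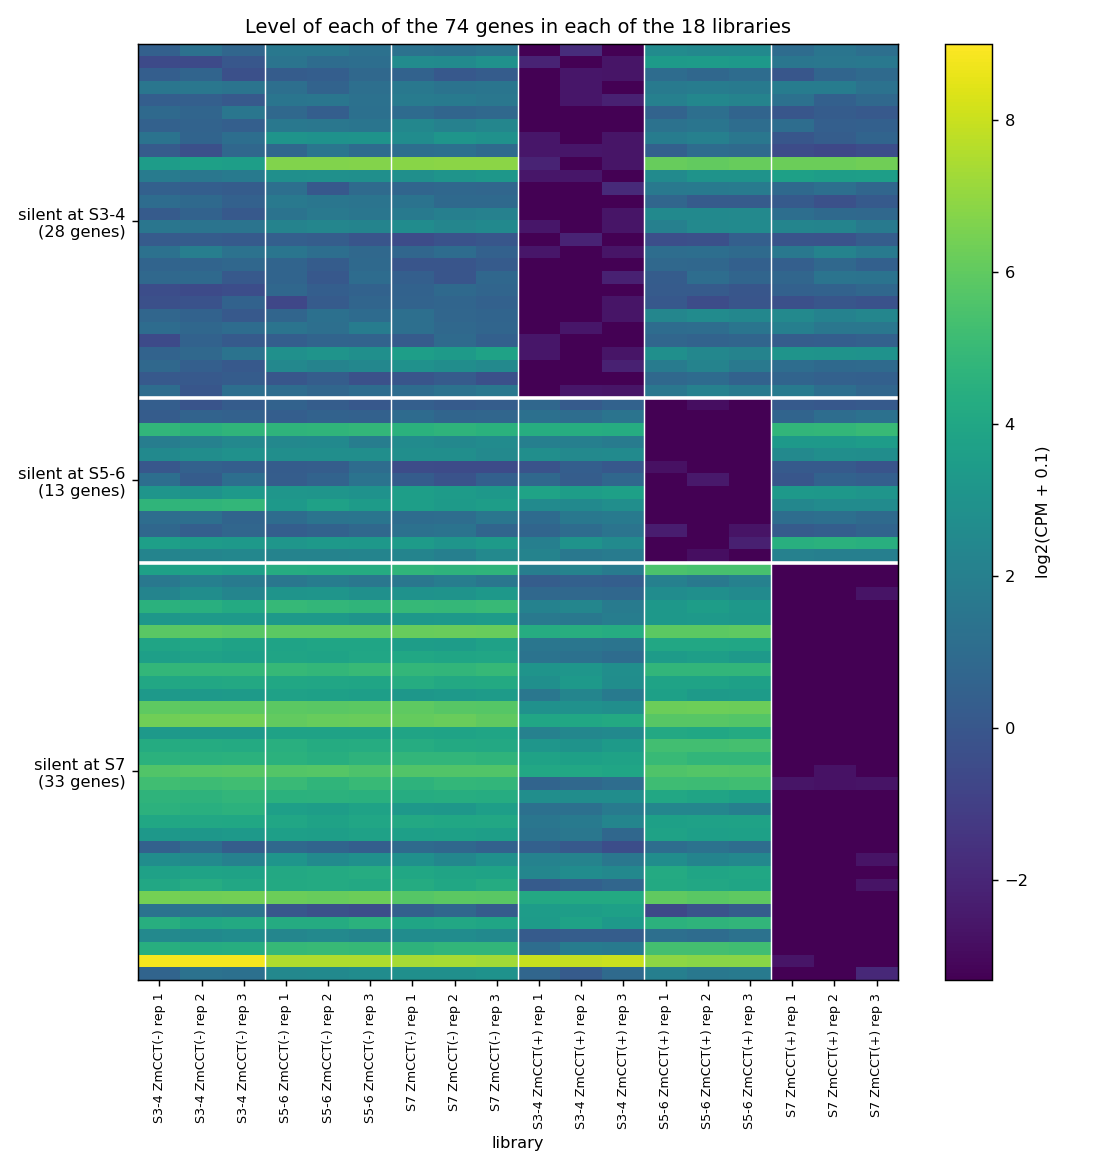
Level of each of the 74 genes (rows, grouped by silent stage) in each of the 18 libraries (columns), as log2(CPM + 0.1), where CPM is the count scaled to library size. Each set is dark in the 3 libraries of its own silent group, and the 33 genes silent at S7 are also darker in the 3 S3-4 ZmCCT(+) libraries than in the S3-4 controls.

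As a share of the genes on in the other 5 groups, the silent genes were 0.135% of 20739 at S3-4, 0.0646% of 20118 at S5-6 and 0.164% of 20092 at S7. The same rule turned round, for genes silent at 1 ZmCCT(-) stage and on in the other 5 groups, found 2 genes, both at S3-4. These were Zm00001d034573, with 2 counts in the S3-4 controls and 33 in S3-4 ZmCCT(+), and Zm00001d049687, with 3 and 217. No gene met the reversed rule among the 19998 candidates at S5-6 or the 20003 at S7. The numbers of the 2 genotypes were not compared by a test, because the rule used these counts.

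The genes silent at S7 were already low in ZmCCT(+) at S3-4, a stage at which the rule asked only that they be on. Of the 33, 30 were lower than in the S3-4 control, 1 was higher and 2 did not pass (edgeR's quasi-likelihood test, adjusted p below 0.05), beside 40.9% of all genes tested that were lower. By at least 2-fold 25 of the 33 were lower, beside 20.9% of all genes tested. Among the 19953 genes on in all 6 groups, 43.6% were lower and 19.4% lower by 2-fold. The median log2 fold change was -1.70, or 30.7% of the control level, beside -0.01 over all genes tested, and -1.69 with DESeq2 size factors in place of TMM. Library by library, the median of the 33 genes was 16.4, 16.8 and 16.7 CPM (counts scaled to library size by TMM) in the S3-4 controls and 4.17, 4.73 and 3.62 CPM in S3-4 ZmCCT(+). In 29 of the 33 genes every ZmCCT(+) library lay below every control library. The share of all genes separated in this way was not counted, so this number has no background beside it.

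At S5-6 the same 33 genes stood near their control level. There 8 were higher, 13 were lower and 12 did not pass, beside 29.8% and 33.4% of all genes tested, and 1 was higher and 3 were lower by at least 2-fold, beside 5.46% and 6.96%. Among the genes on in all 6 groups, 3.1% were higher and 4.79% lower by 2-fold. The median log2 fold change was -0.12, beside -0.02 over all genes tested, and its sign turned to 0.05 when the deposited TPM values were tested with limma. The median of the 33 was 17.0, 18.2 and 17.1 CPM in the S5-6 controls and 16.8, 15.2 and 15.3 CPM in S5-6 ZmCCT(+). At S7 it was 17.3, 16.2 and 16.6 CPM in the controls and 0 in each ZmCCT(+) library. Going by these medians, transgenic anthers held less than a normal level of these transcripts at S3-4, close to a normal level at S5-6 and almost none at S7. The sampled anthers of the 3 stages need not be from the same plants.

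**Figure D2:**
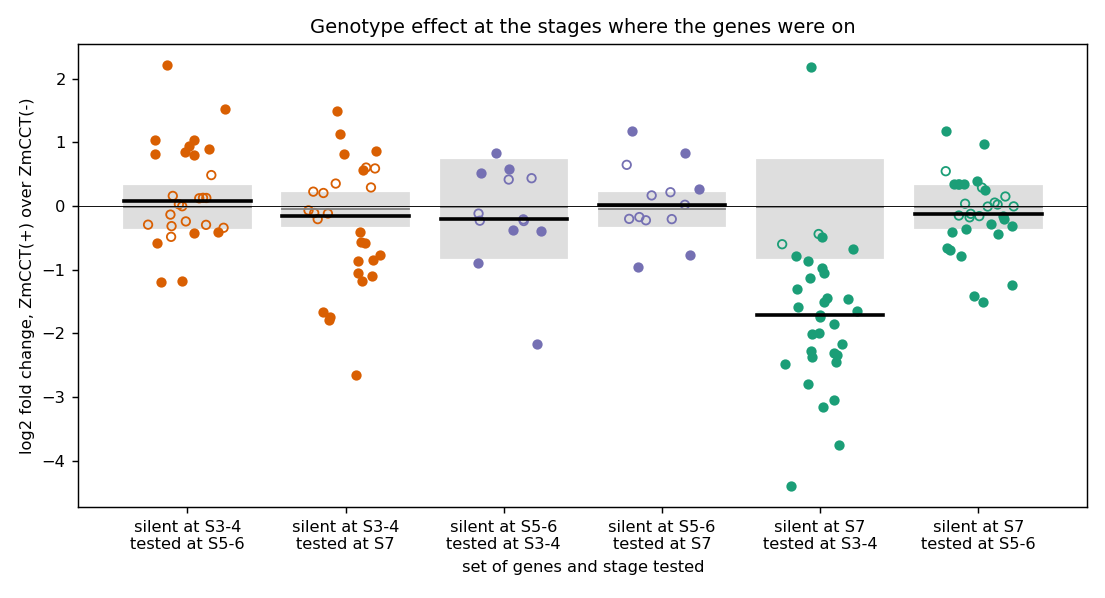
Log2 fold change of ZmCCT(+) over ZmCCT(-) for every gene, by the stage at which it was silent and the stage tested (points: filled where the edgeR adjusted p was below 0.05; black line: median of the set; grey box and line: quartiles and median of all genes tested). The genes silent at S7 lie mostly below the grey box at S3-4, with a median of -1.70, and around it at S5-6, with a median of -0.12.

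Zm00001d024543 (chromosome 10) had the most counts of all 74 genes, 9037 in the S7 controls against 1 in S7 ZmCCT(+). It stood at 453, 451 and 451.5 CPM in the S3-4 controls and at 246, 243 and 254 CPM in S3-4 ZmCCT(+). At S5-6 it was at 183, 183 and 183 CPM in the controls and at 119, 111 and 110.4 CPM in ZmCCT(+). The genotypes did not overlap at either stage, and ZmCCT(+) held 54.8% of the control level at S3-4 (log2 -0.87 ± 0.03 SE, edgeR adjusted p = 3.19e-44) and 62.0% at S5-6 (log2 -0.69 ± 0.03 SE, edgeR adjusted p = 2.76e-34). At S7 it was at 160, 167 and 159 CPM in the controls and at 0.0636, 0 and 0 CPM in ZmCCT(+). In the controls this gene fell by 1.30 on the log2 scale from S3-4 to S5-6 (edgeR adjusted p = 7.65e-56).

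Zm00001d008001 (chromosome 8) had no count in S7 ZmCCT(+) against 3177 in the S7 controls. At S3-4 it was at 87.1, 81.2 and 84.1 CPM in the controls and 17.0, 17.8 and 17.5 CPM in ZmCCT(+), which is 20.7% of the control level (log2 -2.27 ± 0.06 SE, edgeR adjusted p = 2.37e-52). At S5-6 it was at 74.8, 70.5 and 74.2 CPM against 62.6, 57.2 and 61.2 CPM, again without overlap but at 82.3% of the control level. The strongest reduction at S3-4 outside chromosome 3 was that of Zm00001d019622 (chromosome 7). It stood at 16.6, 19.6 and 16.7 CPM in the S3-4 controls and at 1.06, 1.27 and 1.57 CPM in S3-4 ZmCCT(+), or 7.45% (log2 -3.75 ± 0.15 SE, edgeR adjusted p = 1.42e-38). At S5-6 the genotypes overlapped for this gene, at 18.1, 18.6 and 17.1 CPM in the controls and 17.6, 16.5 and 15.3 CPM in ZmCCT(+).

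At S5-6 the log2 fold changes of the genes silent at S7 ran from -1.51 to 1.18. The highest there was Zm00001d028337 (chromosome 1), at 19.5, 18.8 and 18.8 CPM in the S5-6 controls and 44.9, 42.0 and 42.9 CPM in S5-6 ZmCCT(+), a 2.27-fold higher level (log2 1.18 ± 0.07 SE, edgeR adjusted p = 2.46e-27). At S3-4 it had been lower, at 3.70, 4.40 and 3.43 CPM against 12.6, 13.6 and 12.3 CPM in the controls, and at S7 it had no count against 1419. Its genotype difference thus had opposite signs at the 2 stages where it was on. The lowest at S5-6 were Zm00001d039648 (chromosome 3), at 9.29, 11.4 and 9.29 CPM against 30.5, 28.6 and 27.1 CPM in the controls (log2 -1.51 ± 0.09 SE, edgeR adjusted p = 1.60e-26), and Zm00001d051645 (chromosome 4), at 4.99, 4.90 and 3.86 CPM against 12.2, 11.6 and 13.4 CPM (log2 -1.42 ± 0.12 SE, edgeR adjusted p = 5.57e-18). Both were lower at S3-4 as well, at 19.8% and 11.2% of the control level.

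The exception at S3-4 was Zm00001d009022 (chromosome 8), the one gene of the 33 that was higher. It stood at 2.45, 2.77 and 2.54 CPM in the S3-4 controls and at 10.98, 11.53 and 12.83 CPM in S3-4 ZmCCT(+) (log2 2.19 ± 0.18 SE, edgeR adjusted p = 1.30e-19). At S5-6 it was at 0.918, 0.730 and 0.659 CPM in the controls and 0.533, 0.790 and 1.12 CPM in ZmCCT(+), where the genotypes overlapped. Zm00001d053631 and Zm00001d025932 did not pass at S3-4, at 66.0% and 73.7% of the control level (edgeR adjusted p = 0.077 and 0.102). Zm00001d018252 passed at S3-4 at 71.7% of the control level (edgeR adjusted p = 0.0189), but not without S3-4 ZmCCT(+) replicate 3 or S3-4 ZmCCT(-) replicate 1 (edgeR adjusted p = 0.175 and 0.141), and both genotypes overlapped. At S5-6 it stood at 75.1% (edgeR adjusted p = 0.0224), a call lost with DESeq2 (adjusted p = 0.0722) and turned in direction on the TPM scale (log2 0.22, limma adjusted p = 0.0737).

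Position was not used by the rule, and 13 of the 33 genes silent at S7 lay in a row on chromosome 3. They ran from Zm00001d044461 to Zm00001d044488, from 228815712 to 229578470 over 762.8 kb, in coordinates of the tables as deposited; their build was not stated in the labels or headers. Of the 14 genes in this stretch that were on in the other 5 groups, 13 were silent at S7. The remaining one, Zm00001d044478, missed the rule by 1 count, with 4 counts in S7 ZmCCT(+) against 4399 in the S7 controls. The stretch lists 25 genes, and of the 12 that are not among the 74 genes, 8 had 3 counts or fewer over all 18 libraries. Members silent at the same stage were joined when their starts were at most 1 Mb apart, and no other stretch of 3 or more was found for any stage.

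Summed over the 13 genes, the S7 controls held 419.6, 416.6 and 411 CPM and the S7 ZmCCT(+) libraries 0.0636, 0.0989 and 0.0548 CPM. In counts this was 4 against 23154, or 0.0178% of the control level after scaling for library size (95% Clopper-Pearson interval 0.00484% to 0.0455%, counting error only). At S3-4 the sum was 418.5, 426 and 425 CPM in the controls and 110.7, 117 and 112 CPM in ZmCCT(+), 26.8% of the control level. At S5-6 it was 416, 407 and 418 CPM in the controls and 446, 443 and 438 CPM in ZmCCT(+), 106.9% of the control level. Control anthers thus held a nearly constant sum over the stages, 423 ± 4.10, 414.0 ± 5.83 and 416 ± 4.31 CPM (SD, n = 3). Transgenic anthers were below it at S3-4, slightly above it at S5-6 and near 0 at S7.

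All 13 genes of the stretch were lower at S3-4 (edgeR adjusted p below 0.05), 11 of them by at least 2-fold, with log2 fold changes from -4.40 to -0.79. Of all genes tested, 40.9% were lower there and 20.9% lower by at least 2-fold. At S5-6, 5 were higher, 4 were lower and 4 did not pass, beside 29.8% and 33.4% of all genes tested, and 0 differed by 2-fold. The reduction at S3-4 was not limited to the stretch. Of the 20 genes silent at S7 elsewhere in the genome, 17 were lower at S3-4, 14 of them by at least 2-fold, and their median log2 fold change was -1.70, the same to 2 decimals as inside. At S5-6, 3 of these 20 were higher, 9 were lower and 8 did not pass, beside the same 29.8% and 33.4%.

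Within the stretch the reduction at S3-4 was uneven. Zm00001d044488, its last gene, stood at 37.5, 34.7 and 37.7 CPM in the S3-4 controls and at 1.46, 1.67 and 2.05 CPM in S3-4 ZmCCT(+), or 4.74% of the control level (log2 -4.40 ± 0.12 SE, edgeR adjusted p = 3.20e-51). At S5-6 it was higher in ZmCCT(+), at 35.9, 34.7 and 37.3 CPM against 32.3, 26.5 and 31.1 CPM (log2 0.26 ± 0.06 SE, edgeR adjusted p = 0.000319). Zm00001d044480 kept 57.8% of the control level at S3-4, the most of the 13.

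Zm00001d044469 stood at 60.8, 59.3 and 59.5 CPM in the S3-4 controls and 7.48, 7.53 and 6.81 CPM in S3-4 ZmCCT(+), or 12.1% (edgeR adjusted p = 4.51e-54). At S5-6 it was at 58.7, 56.9 and 60.4 CPM in the controls and 76.3, 78.7 and 74.9 CPM in ZmCCT(+), 130.8% (edgeR adjusted p = 5.35e-12). Zm00001d044479 was likewise below the control at S3-4, at 48.4%, and above it at S5-6, where it stood at 39.1, 38.9 and 40.8 CPM against 21.5, 18.8 and 19.9 CPM (log2 0.97 ± 0.07 SE, edgeR adjusted p = 1.19e-21). Zm00001d044461, the first gene, stood at 35.0% of the control level at S3-4 and overlapped the control at S5-6, at 59.8, 59.5 and 60.7 CPM against 60.0, 60.2 and 60.4 CPM. Zm00001d044470 was below the control at both stages, at 20.1% and 78.0% (edgeR adjusted p = 6.33e-51 and 3.21e-10).

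**Figure D3:**
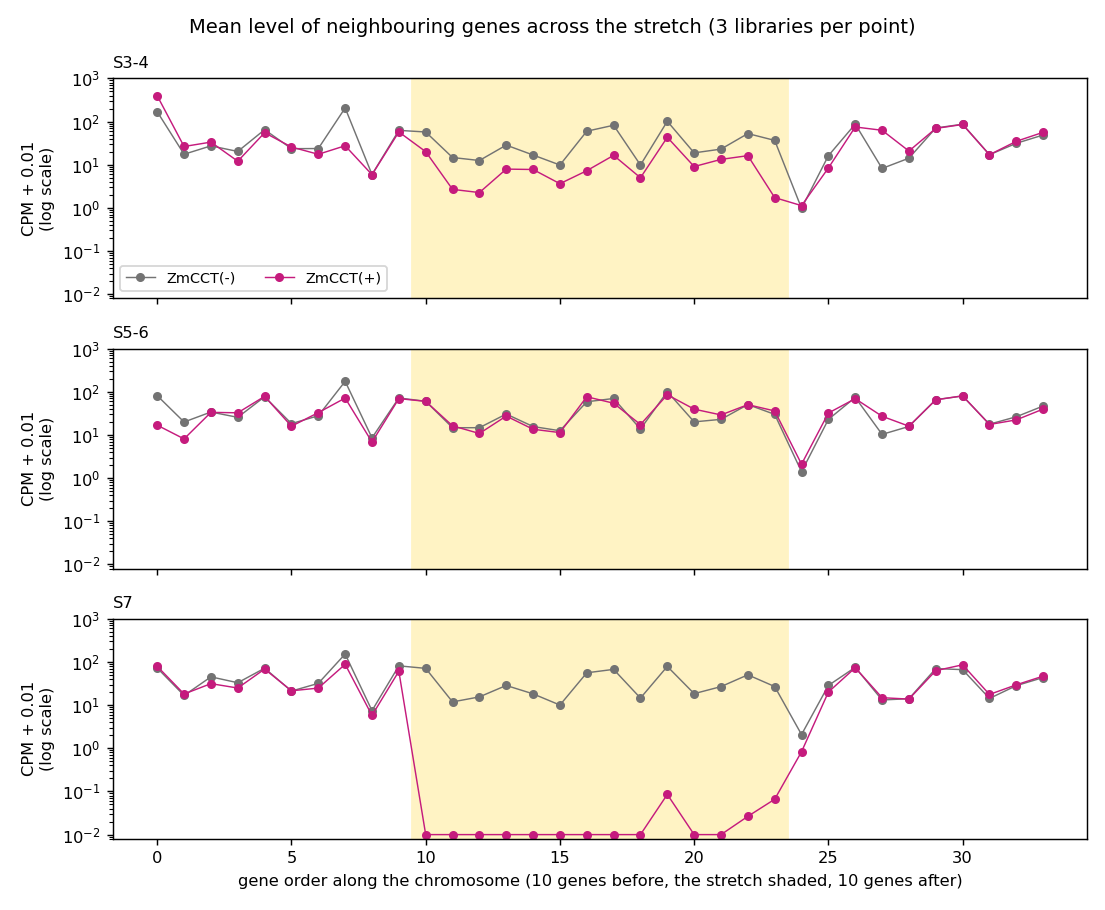
Mean level (CPM + 0.01 on a log scale, 3 libraries per point) of neighbouring genes on chromosome 3 in gene order at the 3 stages, for ZmCCT(-) in grey and ZmCCT(+) in pink. The 14 shaded genes of the stretch include the 13 silent at S7. They lie below the control at S3-4, on both sides of it at S5-6 and near 0 at S7, where the 10 genes on each side lie at 39.7% to 129.4% of the control.

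The nearest expressed genes on both sides of the stretch still had transcripts at S7, but its left end is resolved only to 113.4 kb. The nearest gene on in all 6 groups before it, Zm00001d044459, lies 113.4 kb away and kept 74.9% of the control level at S7, and the nearest one after it, Zm00001d044489, begins 303 bp past Zm00001d044488 and kept 39.7%. Over the 10 genes before the stretch that were on in all 6 groups, S7 ZmCCT(+) held 57.8% to 109.4% of the control level, and over the 10 after it 39.7% to 129.4%. The only flanking gene lower by at least 2-fold at S7 was Zm00001d044489, with 44 counts in ZmCCT(+) against 115 in the controls. At S3-4 the median log2 fold change was -0.07 over the 10 genes before and 0.08 over the 10 after, against -1.70 inside. Single flanking genes moved further at S3-4, from -2.91 to 1.23 before the stretch and from -0.95 to 2.94 after it. A few reads at S7 came from between the members: Zm00001d044487, which lies just before Zm00001d044488, had 10 counts in S7 ZmCCT(+) and 9 in the S7 controls.

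Elsewhere the silent genes lay alone or in pairs. Of the 74 genes, 55 had no other gene of their set within 1 Mb, and 6 formed 3 pairs, all silent at S7. Between Zm00001d028337 and Zm00001d028341 on chromosome 1, Zm00001d028338 and Zm00001d028339 kept 52.9% and 95.6% of the S7 control level. Between Zm00001d009022 and Zm00001d009041 on chromosome 8, the 4 genes that were on kept 74.9% to 99.3%. Between Zm00001d039629 and Zm00001d039648 on chromosome 3, the 12 genes that were on ranged from 25.3% in Zm00001d039643 to 34.3-fold above the control in Zm00001d039640, which had 3066 counts in S7 ZmCCT(+) and 92 in the S7 controls. Unlike the stretch, the pairs enclosed genes on in the other 5 groups that kept 25.3% or more of the S7 control level. By chromosome, the 33 genes comprised 16 on chromosome 3, 5 on chromosome 4, 4 on chromosome 8, 3 on chromosome 10, 2 on chromosome 1 and 1 each on chromosomes 5, 6 and 7.

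The nearest genes on in all 6 groups on either side of a silent gene had medians near 0, but each set had some low neighbours. For the genes silent at S7 these were 42 genes with a median log2 fold change of -0.06 at S7, of which 17 were lower and 9 higher, beside 30.4% and 24.1% of all genes tested. By at least 2-fold 7 of the 42 were lower and 2 higher, beside 5.73% and 3.21%. Among the genes on in all 6 groups, from which the neighbours were taken, these shares were 2.74% and 1.49%. Both neighbours of Zm00001d053305 were among the 7, at 31.7% and 36.2% of the S7 control level, and so were both neighbours of Zm00001d053530, at 21.75% and 22.01%. For the genes silent at S5-6 there were 26 neighbours with a median of -0.03 at S5-6, 10 lower and 5 higher, beside 33.4% and 29.8%. By at least 2-fold 1 of the 26 was lower and 1 higher, beside 4.79% and 3.1% of the genes on in all 6 groups. The lower one lies beside Zm00001d003690 and kept 15.5% of the S5-6 control level. For the genes silent at S3-4 there were 56 neighbours with a median of -0.01 at S3-4, 25 lower and 21 higher, beside 40.9% and 40.4%. By at least 2-fold 6 of the 56 were lower and 7 higher, beside 19.4% and 15.3% of the genes on in all 6 groups. Both neighbours of Zm00001d047671 were among the 6, at 22.1% and 6.95% of the S3-4 control level.

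The loss at S7 had few intermediate cases. Of the 20092 genes on in the other 5 groups, 40 were under 1% of the control level in S7 ZmCCT(+), 8 at 1 to 5%, 13 at 5 to 10% and 91 at 10 to 25%. The corresponding numbers at S5-6 were 10, 17, 25 and 172, and at S3-4 8, 89, 259 and 1404. Seen from the other genotype, 0 genes were under 1% of the ZmCCT(+) level in the S7 controls and 0 in the S5-6 controls, and 10 were in the S3-4 controls.

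Of the 40 genes under 1% at S7, 7 were not among the 33, because they had 4 to 76 counts in S7 ZmCCT(+). One of the 7, Zm00001d044478, lies inside the stretch on chromosome 3 and had a log2 fold change of -1.23 at S3-4. All 7 were lower at S3-4 (edgeR adjusted p of 1.75e-17 or less), 6 of them by at least 2-fold, with a median log2 fold change of -1.69, close to that of the 33. The shares of all genes tested were 40.9% and 20.9%. Among them, Zm00001d029237 (chromosome 1) had 76 counts in S7 ZmCCT(+) against 12135 in the controls and a log2 fold change of -1.91 at S3-4, and Zm00001d019335 (chromosome 7) had 4 against 4222 and -1.91. These 7 were picked for their level at S7 among genes on in the other 5 groups, S3-4 included, and after results of these data were known.

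**Figure D4:**
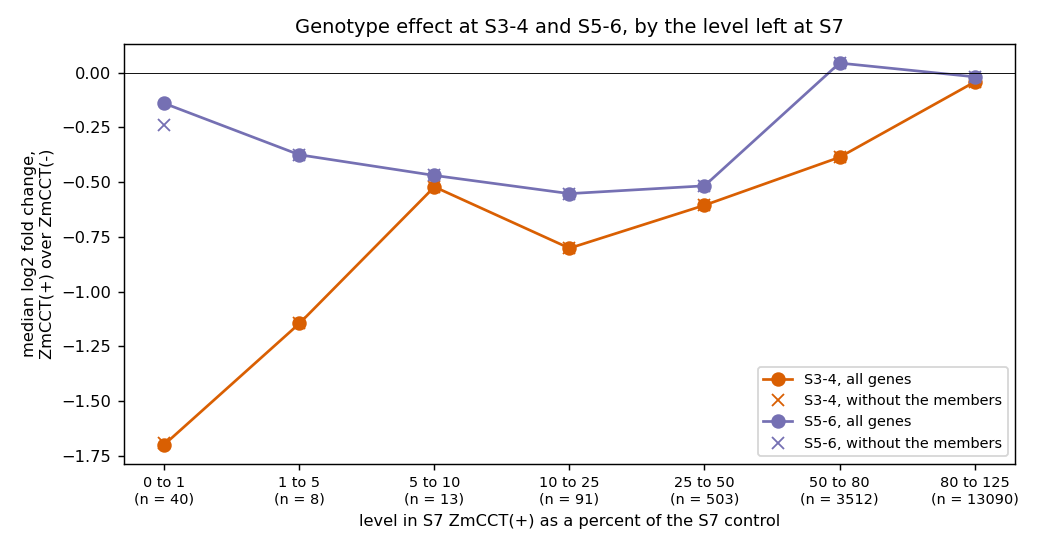
Median log2 fold change of ZmCCT(+) over ZmCCT(-) at S3-4 (orange) and S5-6 (purple) for genes binned by the level left in S7 ZmCCT(+), in percent of the S7 control, with all genes as circles and the genes outside the silent set as crosses; n is the number of genes per bin. At S3-4 the median is -1.70 in the bin under 1% and -0.04 in the bin from 80 to 125%, and the 1 to 5% and 5 to 10% bins hold 8 and 13 genes.

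Across the bins the reduction at S3-4 did not follow the level left at S7 in strict order. The median log2 fold change at S3-4 was -1.15 over the 8 genes at 1 to 5% of the S7 control and -0.52 over the 13 at 5 to 10%, both thinly filled bins. It was -0.80 over the 91 genes at 10 to 25% of the S7 control, -0.61 over the 503 at 25 to 50%, -0.39 over the 3512 at 50 to 80% and -0.04 over the 13090 at 80 to 125%. At S5-6 the medians over these last 4 bins were -0.55, -0.52, 0.04 and -0.02. The 40 genes under 1% at S7 had medians of -1.70 at S3-4 and -0.14 at S5-6. This is a description across genes, which share libraries and are not independent replicates. At S3-4 the bin under 1% stood furthest from 0 of the 7 bins, while at S5-6 it stood closer to 0 than the bins from 1 to 50%.

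The 13 genes silent at S5-6 showed no shared direction at the other stages. At S3-4, 3 were higher, 4 were lower and 6 did not pass, with a median log2 fold change of -0.21, beside 40.4% and 40.9% of all genes tested. At S7, 3 were higher, 2 were lower and 8 did not pass, with a median of 0.02, beside 24.1% and 30.4%. Shares of this size are at or below the background at both stages. No 2 of the 13 lay within 1 Mb of each other, and they were spread over 7 chromosomes.

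Zm00001d003690 (chromosome 2) had the most counts of these 13 in the S5-6 controls, 1578. It had no count at S5-6 in ZmCCT(+), where the controls were at 26.0, 26.6 and 28.4 CPM. It was lower at S3-4, at 77.3% of the control level (log2 -0.37 ± 0.08 SE, edgeR adjusted p = 6.30e-06), and higher at S7, at 28.0, 28.2 and 31.7 CPM against 23.6, 25.7 and 23.6 CPM (log2 0.27 ± 0.07 SE, edgeR adjusted p = 0.000698). Neither pair of groups overlapped, and both differences were small beside the complete loss at S5-6. Zm00001d043894 (chromosome 3) had no count at S5-6 against 396 and overlapped the control otherwise, at 92.1% of the control level at S3-4 and 101.3% at S7 (edgeR adjusted p = 0.446 and 0.92).

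Zm00001d024227 (chromosome 10) had 2 counts at S5-6 against 553 in the controls. It was lower at S3-4, at 3.90, 7.996 and 5.85 CPM against 12.2, 10.8 and 10.1 CPM (log2 -0.90 ± 0.15 SE, edgeR adjusted p = 4.87e-07), and higher at S7, at 21.5, 23.1 and 21.8 CPM against 10.9, 8.52 and 10.3 CPM (log2 1.18 ± 0.12 SE, edgeR adjusted p = 1.34e-11). Zm00001d012585 (chromosome 8) was lower at both stages, most at S3-4, where ZmCCT(+) stood at 5.82, 5.60 and 6.63 CPM against 26.6, 26.8 and 28.1 CPM (log2 -2.17 ± 0.11 SE, edgeR adjusted p = 8.51e-32). At S7 it kept 51.6% of the control level (edgeR adjusted p = 4.69e-11). Zm00001d007114 (chromosome 2) was higher at S7, at 9.66, 10.1 and 11.2 CPM against 6.04, 5.33 and 6.07 CPM (log2 0.84 ± 0.14 SE, edgeR adjusted p = 2.55e-07). Zm00001d012283 (chromosome 8) and Zm00001d028001 (chromosome 1) were higher at S3-4, at 150.0% and 177.5% of the control level (edgeR adjusted p = 4.51e-06 and 0.00445). Zm00001d047851 (chromosome 9) was lower at S7 (log2 -0.77, edgeR adjusted p = 0.014), but not without S7 ZmCCT(+) replicate 1 or S7 ZmCCT(-) replicate 2 (edgeR adjusted p = 0.0551 and 0.101). These genes thus shared no direction at S3-4 or S7.

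The 28 genes silent at S3-4 had few counts. Without S3-4 ZmCCT(+) replicate 1, 2 or 3, the rule took 60, 56 or 52 genes; the limit then stayed at 3 counts but was summed over 2 libraries, so the number could only rise. In the S3-4 control the 28 genes stood at 0.334 to 14.4 TPM. After S3-4 their transcripts were present in ZmCCT(+) at levels on both sides of the control. At S5-6, 9 were higher, 5 were lower and 14 did not pass, with a median log2 fold change of 0.07, beside 29.8% and 33.4% of all genes tested. At S7, 5 were higher, 13 were lower and 10 did not pass, with a median of -0.16, beside 24.1% and 30.4%. By at least 2-fold 7 of the 28 were lower at S7, beside 5.73% of all genes tested, and 2 were higher, beside 3.21%. Among the genes on in all 6 groups these shares were 2.74% and 1.49%. They lay on 9 chromosomes, and no 2 of them within 1 Mb of each other.

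Zm00001d049480 (chromosome 4) had the most counts of the set, 630 in the S3-4 controls. It stood at 11.3, 12.6 and 12.0 CPM in the S3-4 controls and at 0.132, 0 and 0.0603 CPM in S3-4 ZmCCT(+). Its level was much greater at the later stages, at 102, 103 and 105 CPM in the S5-6 controls and 70.8, 65.6 and 70.6 CPM in S5-6 ZmCCT(+), and at 113, 115 and 116 CPM in the S7 controls and 75.2, 73.9 and 80.3 CPM in S7 ZmCCT(+). ZmCCT(+) thus held 66.7% of the control level at S5-6 and 66.6% at S7, without overlap (edgeR adjusted p = 8.73e-23 and 1.17e-22). The gene lies 619 bp from the microRNA precursor zma-MIR2275b on the opposite strand. That precursor had 0 counts in S3-4 ZmCCT(+) against 31 in the S3-4 controls, 41 against 45 at S5-6 and 54 against 76 at S7.

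Among the other genes silent at S3-4, Zm00001d042697 (chromosome 3) was lower at both later stages. It stood at 3.49, 4.03 and 2.86 CPM against 8.22, 7.72 and 7.96 CPM at S5-6, and at 0.890, 1.14 and 1.48 CPM against 6.35, 8.52 and 7.45 CPM at S7, or 15.8% of the control level (log2 -2.66 ± 0.20 SE, edgeR adjusted p = 9.61e-21). Zm00001d013443 (chromosome 5) was also lower at both, at 44.2% and 46.8%. Zm00001d047671 (chromosome 9) kept 28.8% at S7 (edgeR adjusted p = 2.85e-13). Its lower level at S5-6 (74.8%, edgeR adjusted p = 0.0292) was not called by DESeq2 (adjusted p = 0.0735). Zm00001d047414 (chromosome 9) was lower at both stages, at 74.99% and 67.4% (edgeR adjusted p = 0.00719 and 9.31e-05), the first not without S5-6 ZmCCT(+) replicate 3 or S5-6 ZmCCT(-) replicate 2 (edgeR adjusted p = 0.0763 and 0.0559).

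Other genes of this set went the other way. Zm00001d011734 (chromosome 8) was higher at both later stages, at 4.89, 6.08 and 5.04 CPM against 1.53, 2.24 and 1.86 CPM at S5-6 and at 5.53, 4.35 and 4.88 CPM against 2.16, 1.59 and 1.49 CPM at S7 (edgeR adjusted p = 8.20e-11 and 1.23e-09). Zm00001d017028 and Zm00001d049989 were higher at S7, at 217.7% and 147.4% of the control level (edgeR adjusted p = 2.22e-05 and 3.77e-05). Zm00001d031801 (chromosome 1) turned round between the stages. It stood at 10.3, 10.8 and 9.57 CPM against 2.54, 1.93 and 2.10 CPM at S5-6 (log2 2.21 ± 0.16 SE, edgeR adjusted p = 1.12e-21) and at 2.73, 2.82 and 2.96 CPM against 5.98, 5.90 and 7.34 CPM at S7 (log2 -1.17 ± 0.17 SE, edgeR adjusted p = 4.35e-09).

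In the control plants, the genes silent at S3-4 tended to rise after that stage. From S3-4 to S5-6, 15 of the 28 rose, 1 fell and 12 did not pass in ZmCCT(-), with a median log2 change of 0.61, beside 27.9% and 28.4% of all genes tested that rose and fell. By at least 2-fold 10 of the 28 rose, beside 5.98% of all genes tested and 2.63% of the genes on in all 6 groups. From S5-6 to S7, 5 rose and 1 fell, beside 22.5% and 19.9%. Zm00001d049480 rose the most, by 3.11 on the log2 scale (edgeR adjusted p = 4.96e-63), followed by Zm00001d042697, Zm00001d047414 and Zm00001d047671 at 1.98, 1.97 and 1.93. The rule asked for 10 or more counts at all 3 control stages, and these genes had few counts at S3-4, so the room to fall was limited.

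The medians of the other sets in the controls were near 0. Of the 33 genes silent at S7, 11 rose and 6 fell from S3-4 to S5-6, beside 27.9% and 28.4% of all genes tested, and 5 rose and 9 fell from S5-6 to S7, beside 22.5% and 19.9%, with medians of 0.01 and -0.01. The 13 genes of the stretch had medians of -0.003 and -0.05 and log2 changes from -0.29 to 0.47 in the first step. Of the 13 genes silent at S5-6, 0 rose and 1 fell in the first step, and 1 rose and 1 fell in the second, at an adjusted p below 0.05, and 1 gene in all without S5-6 ZmCCT(-) replicate 3 or S7 ZmCCT(-) replicate 1. The fall in the first step was that of Zm00001d012585 (log2 -1.27, edgeR adjusted p = 5.44e-21).

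The threshold of 3 counts cut through a run of genes at S3-4 more than at the other stages. Just inside it at S3-4 were Zm00001d028225, Zm00001d031801 and Zm00001d034022, with 3 counts each against 90, 37 and 59 in the controls. Just outside were Zm00001d001367, Zm00001d002132 and Zm00001d005897, with 4 counts each against 61, 310 and 291. In all, 109 genes that met the rest of the rule had 4 to 10 counts in S3-4 ZmCCT(+), compared with 10 genes at S5-6 and 16 at S7.

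At S5-6 the members with most counts were Zm00001d047851 with 3 against 81 in the controls, Zm00001d008571 with 2 against 94 and Zm00001d024227 with 2 against 553, and the nearest genes outside were Zm00001d041333, Zm00001d031813 and Zm00001d012663 with 4, 5 and 6 counts against 193, 282 and 98. At S7 the members with most counts were Zm00001d025932 and Zm00001d044488 with 3 against 396 and 1508, and Zm00001d018252 with 1 against 358. The nearest genes outside were Zm00001d008989, Zm00001d019335 and Zm00001d024262 with 4 each against 453, 4222 and 2030. At S7 the genes on both sides of the threshold were thus all far below their controls.

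The deposited TPM values are of the same libraries as the counts that chose the genes, so low values were likely beforehand and are no independent support. For 73 of the 74 genes the TPM in the silent group was less than 10% of the control. The highest value was 1.21% among the genes silent at S7 and 7.54% among those silent at S3-4. The exception was Zm00001d047851 (chromosome 9), with 3 counts at S5-6 in ZmCCT(+). Its TPM there was 2.77, 2.83 and 2.41 against 7.56, 7.59 and 10.5 in the S5-6 controls, or 31.3%, so that its silence rests on the count table alone. Of the 39 genes with no count in the silent group, 5 had a TPM above 0 there, the highest being 0.216 in Zm00001d053530 at S7 against a control mean of 35.5.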

How the data were processed

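RNA-seq of maize anthers gave 18 libraries in 6 groups. The deposited tables hold whole-number counts per gene, and tables per library hold the authors' TPM and coverage values with gene positions, per the file headers. The coverage values were used only to look for signal in silent groups and to check the assignment of count columns. Bowtie2, StringTie and DESeq2 are named without versions, per the submitters' processing notes. For the genome build, the strand setting and reads with several matches, nothing is stated in the labels or headers. Such reads could move the counts of genes with near copies.

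Counts were tested with edgeR 4.0.16 (R 4.3.3): TMM scaling, filterByExpr (minimum count 10, minimum total 15; 24694 genes tested, 20884 left out), 1 quasi-likelihood fit of 6 groups with 12 residual degrees of freedom, and Benjamini-Hochberg adjustment over all genes tested, called at 0.05. CPM values are counts scaled to TMM-adjusted library sizes, so 3 counts over a silent group equal 0.0470 to 0.0642 CPM. Values set by the silent group were given without a test. Intervals cover counting error only. The members and lists were chosen with earlier results of these data known. Named genes were, per silent stage, the 5 with the highest mean CPM in the other groups, the ends of stretches with their neighbours, the 2 highest and 2 lowest called genotype differences per stage, and the 3 genes on each side of the threshold. Genes named beyond that rule were chosen after their values were seen. These were Zm00001d044463, Zm00001d044480, Zm00001d044478, Zm00001d044487, Zm00001d053631, Zm00001d053305, Zm00001d053530, Zm00001d029237, Zm00001d034573, Zm00001d049687, and the genes of the pairs and between them other than Zm00001d028337, Zm00001d009022 and Zm00001d039648.

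Alternatives were other rules for silent and on, DESeq2 1.42.0, DESeq2 size factors, other filters, limma 3.58.1 on log2(TPM + 1), a 2-fold minimum, a replicate block and each library left out. The fit was tested on simulated counts. Count columns were assigned by name, and 18 of 18 matched their own sample's coverage values best.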

Additional observations from a re-analysis of the deposited data

Results flagged for a closer look

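In 14 of the 74 genes the genotype difference had opposite signs at the 2 stages where the gene was on, with every ZmCCT(+) library beyond every control library each time. They were 3 genes silent at S3-4, 2 silent at S5-6 and 9 silent at S7. Values follow for the 8 of them that the rule for named genes chose. How many of all genes show such opposite signs was not counted, so the 14 cannot be called many or few. Lack of overlap did not always come with a call. Zm00001d044463, silent at S7, had a log2 fold change of 0.149 at S5-6 (edgeR adjusted p = 0.137). Whether the stages differ was not tested.

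Among genes silent at S3-4, the log2 fold change of ZmCCT(+) over ZmCCT(-) was 2.21 at S5-6 and -1.17 at S7 for Zm00001d031801, and 0.81 at S5-6 and -0.86 at S7 for Zm00001d034022. Among genes silent at S5-6, it was -0.37 at S3-4 and 0.27 at S7 for Zm00001d003690, and -0.90 at S3-4 and 1.18 at S7 for Zm00001d024227. Among genes silent at S7, it was -1.74 at S3-4 and 1.18 at S5-6 for Zm00001d028337. In the stretch on chromosome 3 it was -3.04 and 0.39 for Zm00001d044469, -1.05 and 0.97 for Zm00001d044479, and -4.40 and 0.26 for Zm00001d044488, at S3-4 and S5-6.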

How the results depend on the processing

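The number of silent genes depended on the rule. With 0 counts as silent there were 6 at S3-4, 7 at S5-6 and 39 in all; with at most 10 counts 137, 23 and 209; with 5 counts per library as on 65, 22 and 133; and with 20 counts 9, 8 and 44. Both wider rules gave 3 stretches. All 74 genes were among the 209 and the 133. Leaving out each library, with the limits per group unchanged, gave 28 to 60 genes at S3-4, 13 to 17 at S5-6, 33 to 39 at S7 and 74 to 107 in all, with 1 stretch of 13 to 14 genes.

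The reduction at S3-4 of the genes silent at S7 kept 30 to 32 called genes and a median of -1.75 to -1.66 when a library was left out. Other leave-out ranges of called genes were 12 to 14 (S5-6) and 15 to 18 (S7) for genes silent at S3-4, 5 to 7 (S3-4) and 4 to 6 (S7) for those silent at S5-6, and 17 to 21 (S5-6) for those silent at S7. For the 2 control steps they were 13 to 16 and 4 to 7, 1 and 1 to 3, and 15 to 17 and 11 to 15 in the 3 sets.

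With a 2-fold minimum the called genes of the S3-4 set fell to 6 at S5-6, 9 at S7, and 10 and 1 in the control steps. Those of the S5-6 set fell to 1 at S3-4, 1 at S7 and 1 in the second control step. Those of the S7 set fell to 4 at S5-6, and 3 and 0 in the control steps. Of all genes tested, 19.3% were higher and 20.9% lower by 2-fold at S3-4, 5.46% and 6.96% at S5-6, and 3.21% and 5.73% at S7. By 2-fold 5.98% rose and 5.06% fell in the first control step, and 1.73% and 0.85% in the second. With limma on TPM, the S5-6 set had 2 and 5 called genes in the control steps, the median of the S7 set at S5-6 turned to 0.05, and Zm00001d018252 at S5-6 to 0.22; the cause was not tested.

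To look for pairing, the group mean of each gene was taken from its log CPM. What was left correlated at -0.0424 to 0.0434 between same-numbered libraries of different groups, so no pairing by number was seen. With a replicate block, 31 of the genes silent at S7 were called at S3-4, as without it, and 20 instead of 21 at S5-6. Depth limits the S3-4 set most, since its genes had few counts in the controls.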
